A study of Homo sapiens with 9 samples.

Results

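Vimentin and 9 regulators of the switch between epithelial and mesenchymal cell states were examined by RNA sequencing (RNAseq) in the prostate cancer (PCa) lines PC3 and LNCaP. The 10 genes were chosen by symbol (VIM, ZEB1, ZEB2, SNAI1, SNAI2, TWIST1, OVOL1, OVOL2, ESRP1 and ESRP2), and all 10 were found among the 28216 genes of the counts table. Both lines are established from metastases of PCa patients, and all cells were wild type by the labels. The PC3 group held 3 libraries of untreated cells grown in F12K medium with 10% FBS. The LNCaP groups used a single clone, FCG, which was first held in RPMI without phenol red, with 10% charcoal-stripped FBS, a serum depleted of steroids, for 24 h. Those cells then received 10 nM of the androgen dihydrotestosterone (DHT) or the vehicle, 0.01% ethanol, for 48 h, with 3 libraries for each. The labels name DHT, whereas the study's methods describe androgen treatment with R1881, so the agent is given here as the labels have it. Because line and culture medium differed together, their parts in any difference between PC3 and LNCaP cells cannot be told apart.

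In epithelial-mesenchymal transition (EMT), cells lose tight contacts with their neighbours and take on a motile, fibroblast-like form. The zinc finger repressors ZEB1, ZEB2, SNAI1 (Snail) and SNAI2 (Slug) bind E-boxes and silence junction genes such as CDH1, which encodes E-cadherin, while the helix-loop-helix factor TWIST1 acts in the same programme. OVOL1 and OVOL2 oppose it as repressors that keep cells epithelial, and ESRP1 and ESRP2 direct the epithelial pattern of alternative splicing. Vimentin, the intermediate filament protein of mesenchymal cells, is a widely used marker of the mesenchymal state.

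Sequences that these regulators read are shown first, since the values that follow concern the factors and the genes they are known to act on. Promoter windows of 250 bases upstream of the start site were taken from RefSeq (GRCh38.p14), in which 3 of the 10 genes had an entry: VIM, ZEB1 and ZEB2. The windows below belong to VIM (chr10:17227991-17228240, plus strand), to 1 of 7 annotated starts of ZEB1 (chr10:31318966-31319215, plus strand) and to CRB3 (chr19:6464021-6464270, plus strand), which encodes a polarity protein and is a known target of ZEB1. Capitals mark the E-box bound by ZEB and Snail factors (CAGGTG on either strand) and the GC box (GGGGCGGGG on either strand), whose matches do not overlap in these windows.
VIM: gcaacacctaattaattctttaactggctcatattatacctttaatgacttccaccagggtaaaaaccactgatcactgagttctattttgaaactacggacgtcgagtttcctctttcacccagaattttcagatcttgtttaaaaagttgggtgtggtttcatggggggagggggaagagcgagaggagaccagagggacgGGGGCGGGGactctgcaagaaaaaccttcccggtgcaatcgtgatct
ZEB1: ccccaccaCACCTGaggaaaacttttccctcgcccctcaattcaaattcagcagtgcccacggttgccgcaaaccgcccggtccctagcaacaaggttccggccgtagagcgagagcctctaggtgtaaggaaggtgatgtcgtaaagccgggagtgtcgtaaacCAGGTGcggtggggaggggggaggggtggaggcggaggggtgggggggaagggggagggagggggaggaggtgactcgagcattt
CRB3: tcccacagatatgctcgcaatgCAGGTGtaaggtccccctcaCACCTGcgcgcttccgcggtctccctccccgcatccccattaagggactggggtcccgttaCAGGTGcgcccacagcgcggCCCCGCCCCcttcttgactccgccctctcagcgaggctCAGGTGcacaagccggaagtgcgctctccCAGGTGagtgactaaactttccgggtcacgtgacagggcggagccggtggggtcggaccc
The VIM window held 0 E-boxes and 1 GC box, the ZEB1 window 2 E-boxes and the CRB3 window 5 E-boxes and 1 GC box. The ZEB1 window shown held the most of the 7, of which another held 1 E-box and the other 5 held 0. The window of RAB25, a further known target, held 1 E-box. The ZEB2 window (chr2:144520120-144520369, minus strand) held neither motif. Among 35116 promoter windows of this length, 17.5% held the E-box and 15.1% the GC box. The hexamer AGAACA, the core of the androgen response element, was in 12.4% of all windows on either strand and in 0 of the windows of VIM, ZEB1, ZEB2 and CRB3. These matches describe letters in a window and were not tested as binding sites.

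ZEB1 and ZEB2 are also known targets of the miR-200 family, microRNAs of epithelial cells that were not measured in these libraries. The mature sequences from RefSeq are shown with the seed (bases 2 to 8) in capitals, 1 for each of the family's 2 seeds, followed by 1 site of each kind from the ZEB1 3′ untranslated region with the seed match in capitals.
miR-200c-3p: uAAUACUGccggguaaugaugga
miR-141-3p: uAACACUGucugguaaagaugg
ZEB1 site for miR-200c-3p: tttatcttatCAGTATTatcac
ZEB1 site for miR-141-3p: tcatcagaatCAGTGTTtgtga
The seed of miR-200c-3p is shared with miR-200b-3p and miR-429, and that of miR-141-3p with miR-200a-3p. The 3′ untranslated region of ZEB1, 2540 bases long in the Ensembl canonical transcript, held 6 matches to the first seed and 3 to the second. That of ZEB2, 5370 bases long, held 5 and 4. Over 19605 canonical protein-coding transcripts, 0.0102% held as many matches to the first seed as ZEB1 and 0.0408% as many as ZEB2. SNAI2 held 1 match to the first seed, ESRP1 held 1 to each, and the other 6 genes held 0.

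Counts on genes lay between 17397706 and 25640325 per library, and 3 reads, taken as the limit that a count of 0 allows, correspond to 0.118 to 0.165 CPM, the unit used for levels corrected for depth, depending on the library. Such limits cover counting error only. The androgen response was present at the marker genes: summed CPM of KLK3, KLK2, TMPRSS2, FKBP5 and NDRG1 ranged from 10750 to 11870 with DHT and from 849 to 1127 with vehicle, and all 5 were called higher with DHT. The label "epithelial" was checked with 7 epithelial markers (KRT8, KRT18, KRT19, EPCAM, CDH1, CLDN4 and KRT7), of which 7 passed 3 CPM in every PC3 library, 6 in every DHT library and 5 in every vehicle library. Their summed CPM ranged from 1210 to 1474 in PC3 cells, 3718 to 3959 with DHT and 1412 to 1440 with vehicle. In PC3 cells 2 were called higher and 4 lower against DHT, and 2 higher and 3 lower against vehicle. KRT19 and KRT7 were the higher ones in both. No source says that replicates were separate cultures, so p-values measure only the spread between these libraries. In bulk RNA, fewer cells that express a gene and less RNA per cell cannot be told apart.

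Per kilobase of transcript, the order of the 10 genes differed between the lines. In PC3 cells VIM led by a wide margin, with a mean of 561 CPM per kb, followed by TWIST1 at 19.5, ZEB1 at 10.7 and ESRP2 at 8.997 CPM per kb. ZEB1 and ESRP2 overlapped in their libraries' values, as did SNAI2 (4.88 CPM per kb) with ESRP1 (3.57 CPM per kb), OVOL2 (0.37 CPM per kb) with SNAI1 (0.30 CPM per kb), and OVOL1 (0.137 CPM per kb) with ZEB2 (0.105 CPM per kb). In vehicle-treated LNCaP cells the splicing regulators headed the order, ESRP2 at 34.0 and ESRP1 at 26.01 CPM per kb, and VIM was seventh at 1.06 CPM per kb, a level whose libraries overlapped those of SNAI1 at 1.35 CPM per kb. With DHT, ESRP2 stood at 53.7 CPM per kb, TWIST1 moved up to the second place at 28.8 CPM per kb, and SNAI2 (3.999 CPM per kb) overlapped VIM (3.80 CPM per kb). ZEB1 and ZEB2 were the lowest of the 10 in both LNCaP groups. The plot of CPM by library shows these levels on the scale used for the fold changes.

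**Figure D1:**
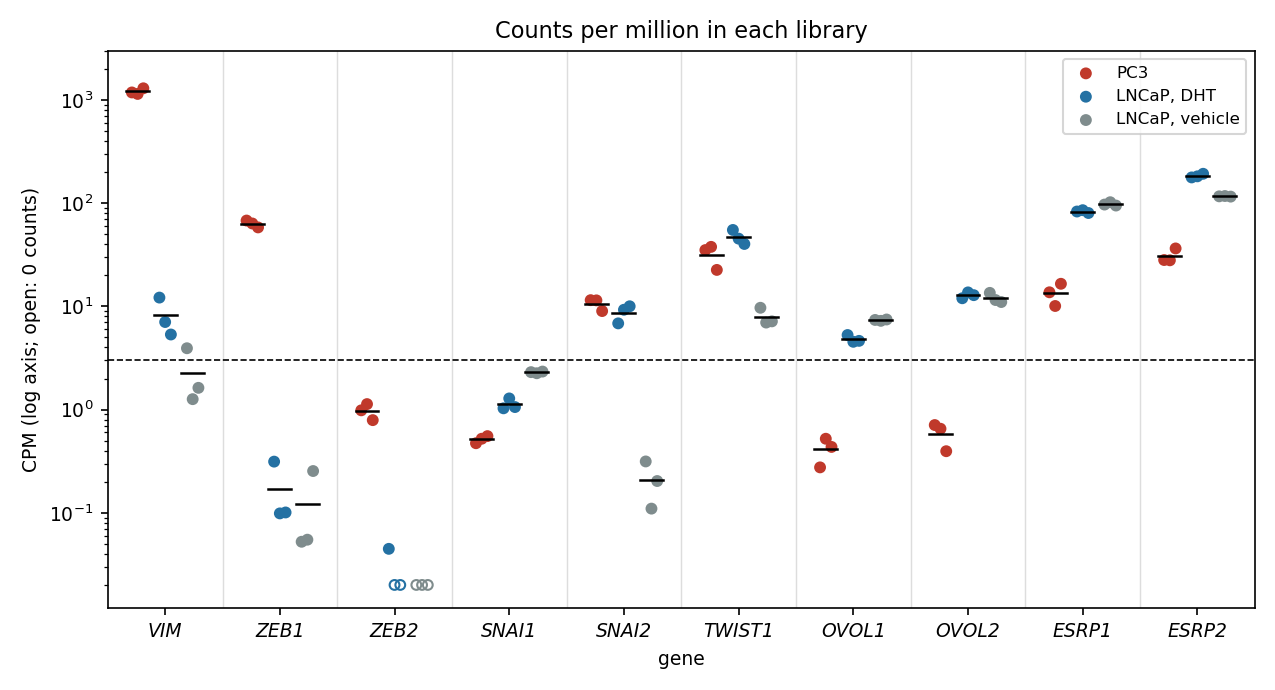
CPM of the 10 genes (log axis) in the 3 PC3, 3 DHT-treated LNCaP and 3 vehicle-treated LNCaP libraries, 1 point per library, with black bars at group means where all 3 libraries had counts, open points at 0.02 CPM for libraries with 0 counts, and a dashed line at the 3 CPM filter. VIM in PC3 cells stands above 1140 CPM in every library, and SNAI2 and TWIST1 in DHT-treated LNCaP cells lie near PC3 and above the vehicle libraries.

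Genes with over 3 CPM in at least 3 of the 6 libraries of a comparison entered edgeR's quasi-likelihood test, and a gene was called at a Benjamini-Hochberg adjusted p under 0.05 with a fold change of at least 2. For PC3 against DHT-treated LNCaP cells, 8 of the 10 genes could be tested and 6 were called, 2 higher (VIM and ZEB1) and 4 lower (OVOL1, OVOL2, ESRP1 and ESRP2). In that comparison 46% of 12541 genes were called, 24% higher and 22.1% lower. For PC3 against vehicle-treated LNCaP cells, all 8 tested genes were called, with SNAI2 and TWIST1 joining the higher group, while 43.2% of 12686 genes were called, 22.2% higher and 21% lower. For DHT against vehicle, 7 genes could be tested and 3 were called, VIM, SNAI2 and TWIST1, all higher, where 14% of 11697 genes were called, 6.54% higher and 7.49% lower. The 3 comparisons share libraries in pairs, so their values are given side by side and are not independent of each other.

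**Figure D2:**
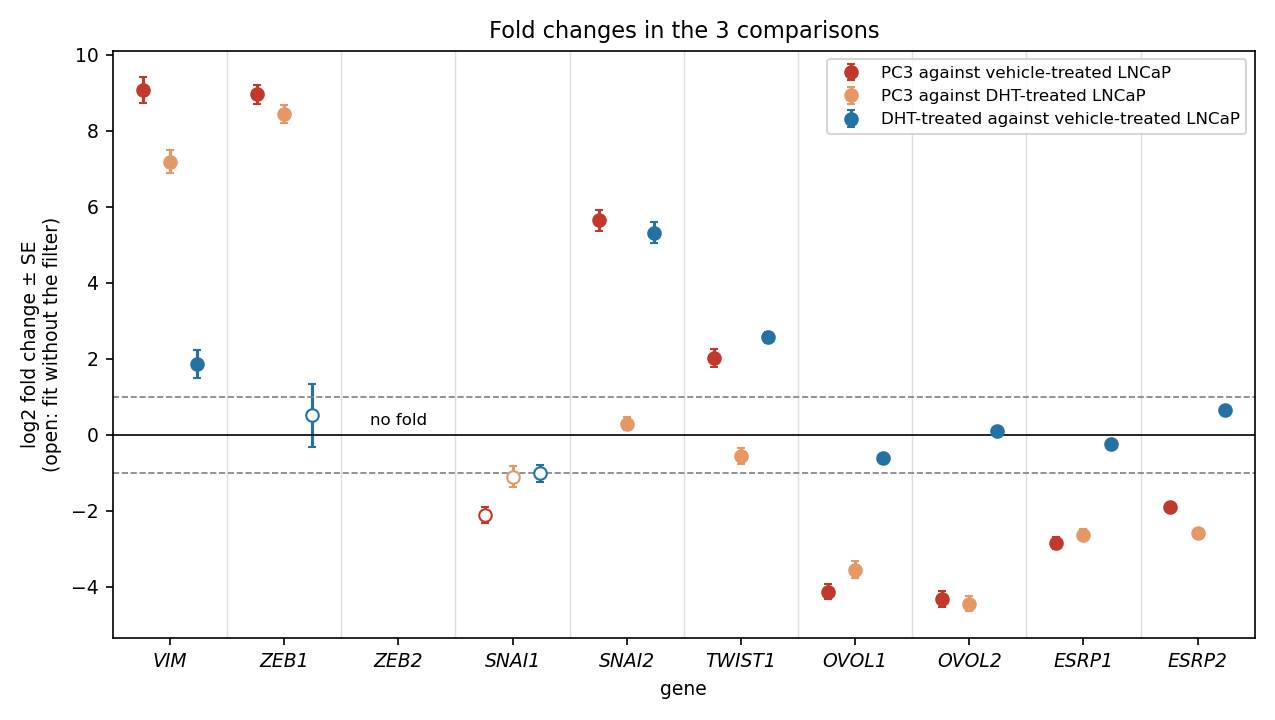
Log2 fold changes (points) with standard errors (bars) of the genes in the 3 comparisons, with dashed lines at the 2-fold threshold and open points from the fit without the filter on low counts. VIM and ZEB1 lie above 7 in both PC3 comparisons, OVOL1, OVOL2, ESRP1 and ESRP2 lie below -1.8 in both, and SNAI2 is above 5 in both comparisons against vehicle. ZEB2 has no fold because its LNCaP libraries held at most 1 read.

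VIM (chr10:17228241-17237593, GRCh38, plus strand, 10 exons) separated the 2 lines. The PC3 libraries held 30064, 26319 and 32841 reads, or 1209 ± 79.8 CPM (SD, n = 3). The DHT libraries held 272, 143 and 106 reads, 8.19 ± 3.55 CPM, and the vehicle libraries 75, 23 and 32 reads, 2.27 ± 1.45 CPM. Every PC3 library was above every LNCaP library, and every DHT library was above every vehicle library. In PC3 cells the level was 146-fold that of DHT-treated LNCaP cells (log2 fold change 7.19, SE 0.31, edgeR adjusted p = 2.6e-07) and 537-fold that of vehicle-treated cells (log2 fold change 9.07, SE 0.34, adjusted p = 1.51e-07). Without vehicle replicate 1 the latter log2 fold change was 9.73.

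VIM was also higher with DHT than with vehicle, by 3.63-fold (log2 fold change 1.86, SE 0.36, edgeR adjusted p = 0.000447). Between libraries of the same number, the DHT to vehicle ratio of CPM was 3.10, 5.59 and 3.29. The log2 fold change ranged from 1.44 without DHT replicate 1 to 2.51 without vehicle replicate 1, and it passed the call rule each time. These reads amount to 0.442% to 1.01% of the PC3 level in the DHT libraries and to 0.104% to 0.325% in the vehicle libraries. To place them, the same share was computed for 108 other PC3-high transcripts, defined as at least 100 CPM in every PC3 library and at most 1% of the PC3 mean in the mean of the LNCaP libraries.

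By their definition the PC3-high transcripts were low in LNCaP cells, and their median was highest in replicate 1 of each group. Of the 108, 0, 12 and 16 had 0 counts in the DHT libraries and 0, 28 and 6 in the vehicle libraries. Their median was 0.643%, 0.138% and 0.114% of the PC3 level in the DHT libraries and 0.322%, 0.0881% and 0.123% in the vehicle libraries. VIM lay at the median of the list with vehicle, where 50.9%, 51.9% and 50.9% of its transcripts were below VIM. With DHT it lay higher, above 84.3%, 85.2% and 81.5% of them. The 1% limit on the LNCaP mean keeps transcripts with higher LNCaP levels off the list, so these ranks are partly set by the rule. In a fit without the filter, the median log2 difference of the list between DHT and vehicle was 0.56 (quartiles -0.10 and 1.37), that of VIM was 1.88, and 12 of the 108 were above VIM. The part that such transcripts had in the VIM reads of LNCaP cells was not tested.

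**Figure D3:**
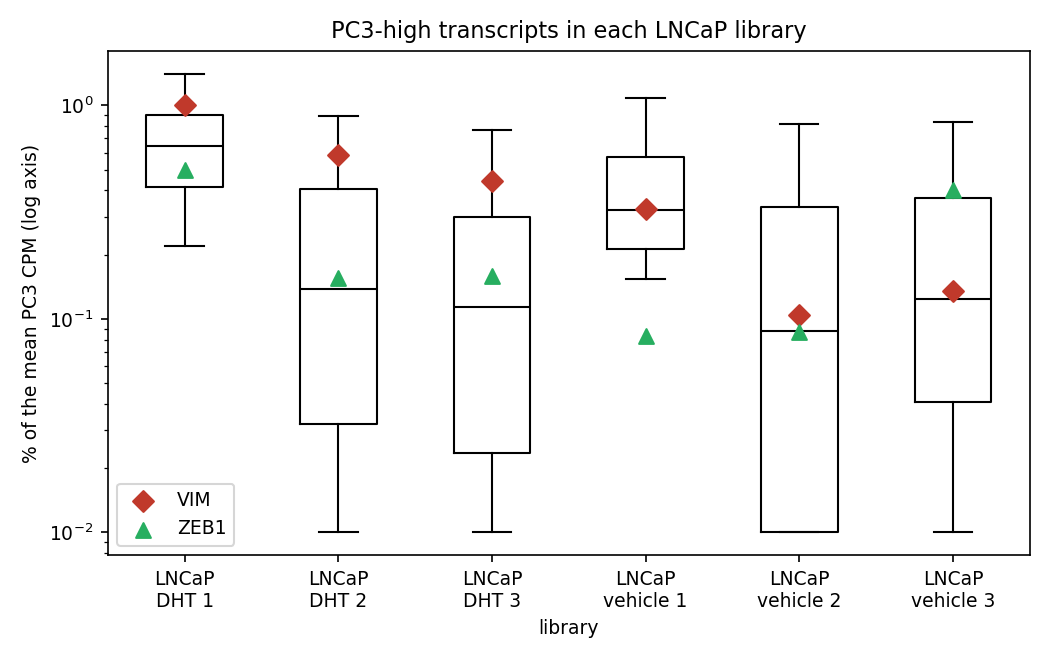
Level of 108 PC3-high transcripts in each LNCaP library as a percent of their mean PC3 CPM (log axis, values under 0.01% drawn at 0.01%), with boxes at the quartiles, lines at the median and whiskers at the 5 and 95 percentiles, and with VIM and ZEB1 as symbols. VIM lies above the box in the 3 DHT libraries, at the median in the vehicle libraries, and ZEB1 follows no such split.

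VIM overlaps other annotated genes: 33.6% of the 74-base stretches of its canonical transcript also occur, on either strand, in transcripts of VIM-AS1 or ENSG00000234961. Reads on the other strand made up 0.404% of those at VIM in PC3 cells. VIM-AS1, the antisense gene at the same locus, had 106, 88 and 114 reads in PC3 cells, 3, 7 and 7 with DHT and 1 in each vehicle library. It was called higher in PC3 cells than with DHT (log2 fold change 3.91) and than with vehicle (log2 fold change 6.18).

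The EMT repressor ZEB1 (chr10:31318495-31529814, plus strand) was close to the limit of detection in LNCaP cells. Its reads numbered 1725, 1462 and 1474 in the PC3 libraries (63.2 ± 4.83 CPM, SD, n = 3), 7, 2 and 2 in the DHT libraries and 1, 1 and 5 in the vehicle libraries. The lines did not overlap and the LNCaP groups did. Relative to PC3 cells these levels were 0.495%, 0.156% and 0.159% with DHT and 0.0829%, 0.0868% and 0.401% with vehicle, in the range of the PC3-high transcripts, whose part in these reads was not tested. From summed reads, PC3 cells had 359 times the level of DHT-treated LNCaP cells (95% counting interval 200.5 to 720) and 515 times that of vehicle-treated cells (250 to 1281). The edgeR log2 fold changes were 8.45 (SE 0.23, adjusted p = 4.07e-08) and 8.97 (SE 0.25, adjusted p = 4.18e-08). With so few reads single libraries moved them, to 9.25 without DHT replicate 1 and to 10.08 without vehicle replicate 3. Between DHT and vehicle, 11 against 7 reads in all gave no detectable difference at this depth (log2 fold change 0.52, edgeR adjusted p = 0.616 in the fit without the filter), with values from -0.27 to 1.63 when single libraries were left out.

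Reads at the ZEB1 locus depended on the strand. On the strand opposite to ZEB1 there were 133 reads over the 3 PC3 libraries, 119 over the DHT libraries and 109 over the vehicle libraries. These were 2.77% of the reads at ZEB1 on both strands in PC3 cells but 91.5% and 94.0% in the LNCaP groups. ZEB1-AS1 (chr10:31206278-31320447, minus strand), an antisense RNA gene that starts within ZEB1 and overlaps it, had 200, 197 and 220 reads in PC3 cells, 185, 174 and 162 with DHT and 176, 189 and 161 with vehicle. A read in the overlap may enter both counts, and the part of ZEB1-AS1 in the opposite-strand reads was not tested. Its level differed by a log2 fold change of 0.01 (SE 0.11, edgeR adjusted p = 0.948) between PC3 and DHT-treated cells and of -0.12 (SE 0.12, adjusted p = 0.381) between PC3 and vehicle-treated cells. The ZEB1 values above rest on the gene's own strand. With the unstranded counts that the alignment also gave, which drop reads shared by overlapping genes, the log2 fold changes were 8.59 and 9.43.

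**Figure D4:**
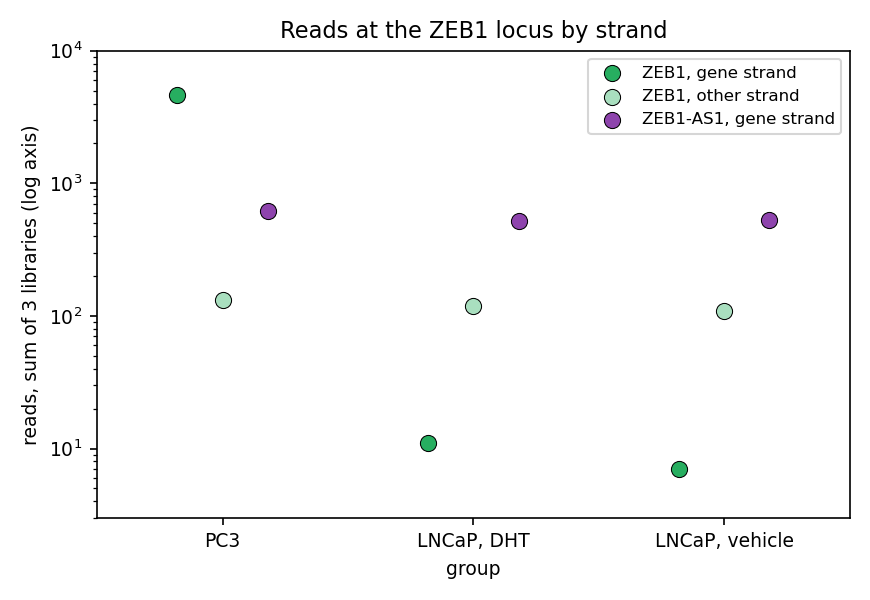
Reads summed over 3 libraries (log axis) on the strand of ZEB1, on the opposite strand within ZEB1, and on ZEB1-AS1, for each group. The ZEB1 points fall from 4661 reads in PC3 cells to 11 with DHT and 7 with vehicle, while the points for the opposite strand and for ZEB1-AS1 lie close together across the groups.

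ZEB2 (chr2:144364364-144521057, minus strand), the paralogue of ZEB1, was detected at a low level and almost solely in PC3 cells. It had 25, 26 and 20 reads there (0.968 ± 0.171 CPM, SD, n = 3), 1, 0 and 0 with DHT and 0 in every vehicle library. The lines did not overlap. All libraries were below the 3 CPM filter. From summed reads the ratio to DHT-treated cells was 60.2 (95% counting interval 10.5 to 2410), and PC3 cells were at least 6.13-fold higher than vehicle-treated cells, taking 3 counts in each vehicle library.

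SNAI1 (chr20:49982980-49988886, plus strand), which encodes Snail, ran opposite to ZEB1. It had 12, 12 and 14 reads in the PC3 libraries, 23, 26 and 21 with DHT and 44, 41 and 46 with vehicle, and the 3 groups did not overlap. The means were 0.516 ± 0.041, 1.12 ± 0.139 and 2.30 ± 0.0437 CPM (SD, n = 3 each), all under the filter. In the edgeR fit without the filter, in which 42.9%, 41% and 14.4% of genes met the call rule in the 3 comparisons, SNAI1 was lower in PC3 cells than with DHT (log2 fold change -1.10, SE 0.27, adjusted p = 0.00409) and than with vehicle (-2.11, SE 0.22, adjusted p = 1.36e-05). It was lower with DHT than with vehicle by a log2 fold change of -1.01 (SE 0.22, adjusted p = 0.000402). That value sat on the 2-fold threshold and slipped just under it in 6 of 13 refits, among them those without DHT replicate 1 (-0.95), DHT replicate 3 (-0.97), vehicle replicate 1 (-0.996) and vehicle replicate 3 (-0.99).

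SNAI2 (chr8:48917598-48921740, minus strand), which encodes Slug, had the largest change with androgen among the 10 genes. Reads numbered 153, 188 and 199 in the DHT libraries (8.72 ± 1.66 CPM, SD, n = 3) and 6, 2 and 4 in the vehicle libraries (0.209 ± 0.102 CPM). PC3 cells had 292, 263 and 228 reads (10.6 ± 1.42 CPM). The vehicle libraries stood far below all others, while the PC3 and DHT libraries overlapped. The level was 40.1-fold higher with DHT than with vehicle (log2 fold change 5.33, SE 0.29, edgeR adjusted p = 2.26e-09), and the ratio in pairs of the same number was 21.8, 84.5 and 49.4. PC3 cells were 50.1-fold above vehicle-treated cells (log2 fold change 5.65, SE 0.28, adjusted p = 5.51e-07). Against DHT-treated cells the log2 fold change was 0.30 (SE 0.17, adjusted p = 0.139), which does not show that the levels were the same.

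TWIST1 (chr7:19020991-19117636, minus strand) was higher with DHT as well. Its reads were 1230, 919 and 799 with DHT (46.9 ± 7.51 CPM, SD, n = 3), 185, 127 and 141 with vehicle (7.94 ± 1.52 CPM) and 893, 868 and 571 in PC3 cells (31.8 ± 8.12 CPM). The 3 groups did not overlap, with DHT the highest and vehicle the lowest. The DHT level was 5.92-fold that with vehicle (log2 fold change 2.57, SE 0.14, edgeR adjusted p = 2.28e-09), at pair ratios of 5.68, 6.51 and 5.62. PC3 cells were 4.07-fold above vehicle (log2 fold change 2.03, SE 0.23, adjusted p = 7.9e-05). Relative to DHT-treated cells the PC3 level had a log2 fold change of -0.56 (SE 0.21, adjusted p = 0.0388), below the 2-fold threshold.

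The OVOL repressors were expressed in LNCaP cells and low in PC3 cells. OVOL2 (chr20:17956979-18059188, minus strand) had 18, 15 and 10 reads in PC3 cells (0.585 ± 0.167 CPM, SD, n = 3), 268, 277 and 255 with DHT (12.8 ± 0.838 CPM) and 258, 210 and 217 with vehicle (12.02 ± 1.32 CPM). The lines were apart, and the LNCaP groups overlapped. PC3 cells were 21.7-fold lower than DHT-treated cells (log2 fold change -4.44, SE 0.20, edgeR adjusted p = 3.09e-07) and 20.1-fold lower than vehicle-treated cells (-4.33, SE 0.21, adjusted p = 5.68e-07). DHT against vehicle gave 0.10 (SE 0.098, adjusted p = 0.39).

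OVOL1 (chr11:65787063-65797214, plus strand) had 7, 12 and 11 reads in PC3 cells, 118, 92 and 92 with DHT and 141, 132 and 147 with vehicle. All 3 groups were separate, with vehicle the highest. PC3 cells were 11.7-fold lower than DHT-treated cells (log2 fold change -3.55, SE 0.23, edgeR adjusted p = 2.26e-06) and 17.6-fold lower than vehicle-treated cells (-4.13, SE 0.20, adjusted p = 4.9e-07). With DHT the log2 fold change against vehicle was -0.61 (SE 0.12, adjusted p = 0.00035), under the 2-fold threshold. A stretch of OVOL1 is shared with another annotated gene, ENSG00000255404, which holds 30.9% of its 74-base stretches.

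The splicing regulators were lower in PC3 cells but remained well detected. ESRP1 (chr8:94641074-94707466, plus strand) had 348, 232 and 419 reads in PC3 cells (13.4 ± 3.24 CPM, SD, n = 3), 1856, 1734 and 1594 with DHT (83.0 ± 2.62 CPM) and 1850, 1862 and 1868 with vehicle (98.0 ± 3.77 CPM). ESRP2 (chr16:68229033-68238102, minus strand) had 715, 643 and 922 reads in PC3 cells (30.8 ± 4.84 CPM), 3971, 3691 and 3825 with DHT (184 ± 7.73 CPM) and 2223, 2138 and 2280 with vehicle (117 ± 0.770 CPM). For both genes the 3 groups did not overlap, and the paralogues ordered the LNCaP groups differently, ESRP1 being highest with vehicle and ESRP2 with DHT.

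ESRP1 was 6.16-fold lower in PC3 cells than with DHT (log2 fold change -2.62, SE 0.16, edgeR adjusted p = 1.42e-06) and 7.16-fold lower than with vehicle (-2.84, SE 0.15, adjusted p = 1e-06). ESRP2 was lower by 5.96-fold (log2 fold change -2.58, SE 0.10, adjusted p = 2.11e-07) and by 3.72-fold (-1.89, SE 0.10, adjusted p = 9.89e-07). DHT against vehicle gave a log2 fold change of -0.24 for ESRP1 (SE 0.045, adjusted p = 0.000344) and of 0.66 for ESRP2 (SE 0.039, adjusted p = 6.35e-09). Both passed the adjusted p but not the 2-fold threshold, and the pair ratios were 0.856, 0.837 and 0.847 for ESRP1 and 1.53, 1.55 and 1.66 for ESRP2. Over 14 refits ESRP1 kept its direction but did not always keep an adjusted p under 0.05, whereas ESRP2 did.

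Genes that ZEB and Snail factors are known to repress were mostly lower in PC3 cells. Of 22 such epithelial genes, all tested, 18 were called lower and 1 higher in PC3 against each LNCaP group, with median log2 fold changes of -2.76 against DHT and -2.92 against vehicle, where the median of all genes was 0.04 and 0.03. Of all tested genes, 22.1% and 21% were called lower in these comparisons, and 24% and 22.2% higher. For DHT against vehicle the shares were 7.49% lower and 6.54% higher. This list and those below were chosen with earlier results of these data known, so their counts are descriptions only. CDH1, which encodes E-cadherin, had 11.3 CPM in PC3 cells, 657 with DHT and 549 with vehicle (log2 fold changes -5.86, SE 0.14, and -5.58, SE 0.13). CRB3, whose promoter window held the 5 E-boxes shown above, had 0.867, 50.8 and 30.6 CPM in the same order (log2 fold changes -5.86, SE 0.16, and -5.11, SE 0.16). RAB25, a small GTPase of epithelial recycling endosomes, was lowest relative to LNCaP cells, at log2 fold changes of -7.69 and -7.81. The exception was MAL2, a protein of apical transport, which was higher in PC3 cells at 1.63 and 1.38, and the tight junction genes CLDN3 and CLDN4 and the polarity gene LLGL2 were not called. For DHT against vehicle, 2 of the 22 were called higher (TMC4 at 1.12 and TMEM125 at 1.03), and 0 were called lower, by edgeR's quasi-likelihood test and by DESeq2. At an unadjusted p under 0.05 by edgeR, 16 were higher and 5 lower. The median was 0.27 against -0.01 for all genes.

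Other epithelial transcription factors followed OVOL1 and OVOL2 in direction. Of 10, 6 could be tested, and against each LNCaP group the PC3 level was called lower for 5 and higher for 1. GRHL2, a factor that maintains epithelial junction genes, had 3.48 CPM in PC3 cells, 173 with DHT and 120 with vehicle (log2 fold changes -5.63 and -5.08). EHF had 6.23, 824 and 823 CPM (log2 fold changes -7.04 and -7.02). KLF5 was the exception, at 219 CPM in PC3 cells, 32.6 with DHT and 7.13 with vehicle, and it was the single gene of this list called between DHT and vehicle (2.19, SE 0.11).

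**Figure D5:**
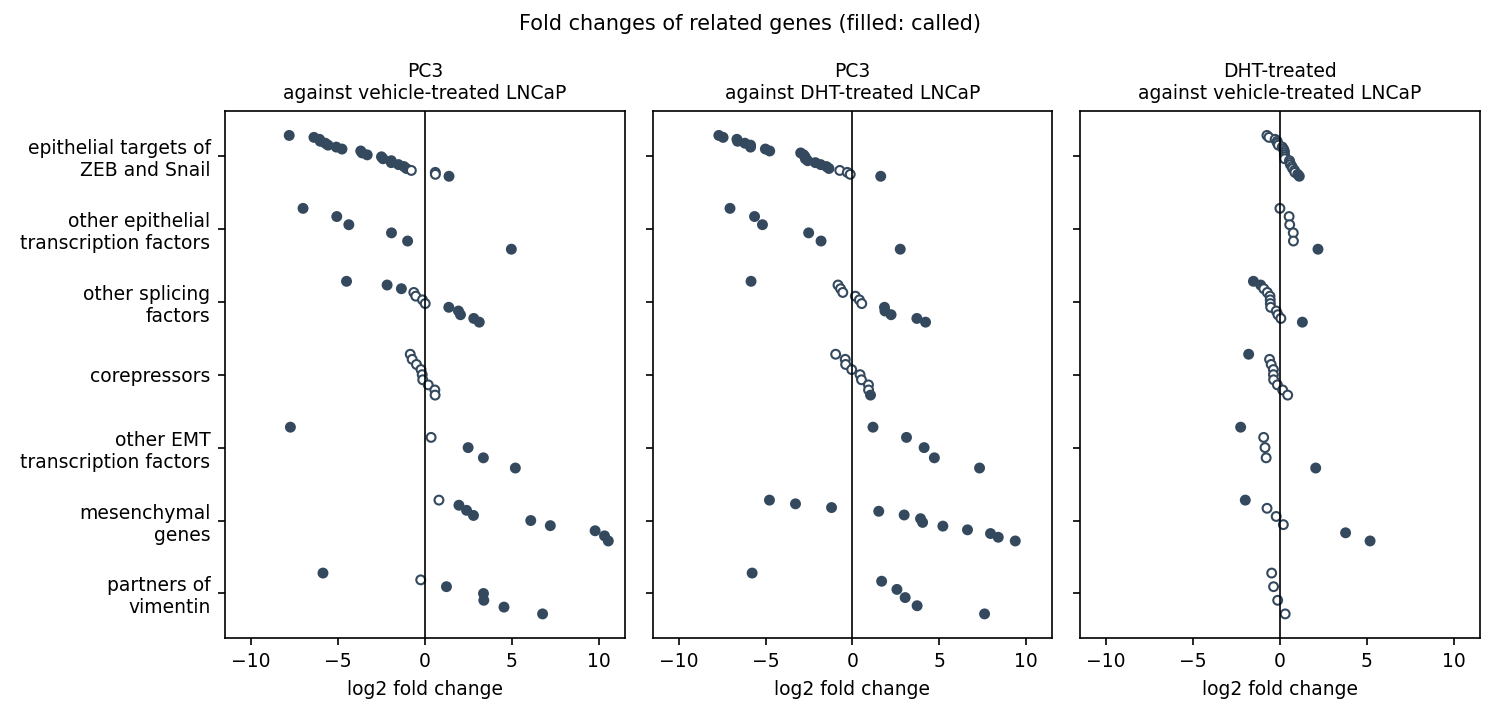
Log2 fold changes of the tested genes of 7 related lists in each comparison, 1 point per gene, filled where called. Epithelial targets and epithelial factors lie mostly left of 0 in both PC3 panels, mesenchymal genes mostly right of it, and fewer points are filled in the DHT panel. TWIST2 is left out of the panel of PC3 against vehicle, since it had 0 counts with vehicle.

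Among 12 further EMT factors, 5 could be tested against DHT and all 5 were called higher in PC3 cells. TWIST2 and TCF4 passed the filter through their PC3 libraries alone. GSC, at 0.0145 CPM in PC3 cells and 2.20 with DHT, was under the filter there, so this count was partly set by the filter. Against vehicle 6 could be tested, of which 4 were called higher, GSC was called lower and TCF3 was not called (log2 fold change 0.35, SE 0.065). The remaining factors were under the filter. TWIST2, the paralogue of TWIST1, had 154, 127 and 159 reads in PC3 cells, 0, 0 and 2 with DHT and 0 in all vehicle libraries. With DHT against vehicle, SOX9 was called higher (log2 fold change 2.06, SE 0.12) and TCF4 lower (-2.25, SE 0.22). Mesenchymal genes were called higher in PC3 cells in 9 of 12 tested against DHT, with 3 lower, and in 8 of 9 tested against vehicle. CDH2, which encodes N-cadherin, had 172 CPM in PC3 cells and 0.241 and 0.192 CPM with DHT and vehicle. The 3 genes lower in PC3 cells than with DHT were ACTA2, LOX and TAGLN, and of 6 tested between DHT and vehicle, ACTA2 (3.78, SE 0.15) and LOX (5.19, SE 0.40) were called higher and FN1, which encodes fibronectin, lower (-1.99, SE 0.056).

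Other splicing factors of these programmes did not move together. Of 12 tested, the PC3 level was called higher for 5 and lower for 1 against DHT, with 5 higher and 3 lower against vehicle, and 1 higher and 2 lower between DHT and vehicle. Of all tested genes, 46%, 43.2% and 14% were called in these comparisons, so the counts set this list little apart. RBM47, an RNA-binding protein of epithelial cells, had 5.03 CPM in PC3 cells, 287 with DHT and 117 with vehicle, and was called in all 3 comparisons (log2 fold changes -5.83, -4.52 and 1.30). QKI, which directs mesenchymal splicing, was higher in PC3 cells by log2 fold changes of 2.22 and 2.04. KHDRBS3 was higher by 4.20 and 3.12 and lower with DHT than with vehicle by -1.10.

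Markers of other cell types moved in part with VIM. Of 7 fibroblast markers (COL1A1, COL1A2, COL3A1, DCN, LUM, PDGFRB and PDGFRA), 3 passed 3 CPM in every PC3 library and 1, COL1A1, in every LNCaP library, and their summed CPM ranged from 41.1 to 55.3 in PC3 cells, from 12.6 to 15.5 with DHT and from 22.9 to 26.5 with vehicle. In PC3 cells 3 of 3 tested were called higher against DHT (COL1A1, COL3A1 and PDGFRA) and 2 of 3 against vehicle (COL3A1 and PDGFRA). COL3A1 had 4.91 CPM in PC3 cells, 0.127 with DHT and 0.950 with vehicle, and PDGFRA had 5.17, 0.0317 and 0.0183 CPM. COL1A2, DCN, LUM and PDGFRB were under the filter in every comparison. The summed leukocyte and endothelial markers ranged from 34.4 to 38.2, 23.9 to 29.0 and 18.2 to 20.1 CPM in the same order, with CD68 and VWF as the genes that could be tested. CD68, a macrophage marker, had the same order as VIM, with 32.6 CPM in PC3 cells, 18.6 with DHT and 1.86 with vehicle, and was called 10.0-fold higher with DHT than with vehicle (log2 fold change 3.33, SE 0.17) and 17.8-fold higher in PC3 cells than with vehicle (4.15, SE 0.14). VWF, an endothelial marker, had the opposite order, with 0.0553, 7.49 and 17.01 CPM. The endothelial markers did not agree, since PECAM1, under the filter, was highest in PC3 cells at 2.68, 0 and 0.0175 CPM. CDH5 had 0 counts in every library. PTPRC, the pan-leukocyte marker, had 0 counts in the LNCaP libraries and 0.216 CPM in PC3 cells. The part of these markers in the VIM values was not tested.

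The genes whose pattern was most like that of VIM, and of OVOL2 as the gene with the largest fall in PC3 against DHT-treated cells, were found by the root mean square difference of log2(CPM + 0.5), centred for each gene, over 9 libraries among 12843 genes. For VIM they were IER3 (0.33), IGF2BP2 (0.35), KRT7 (0.38), S100A10 (0.39) and LGALS1 (0.45). IER3 had 215 CPM in PC3 cells, 1.69 with DHT and 0.262 with vehicle. For OVOL2 they were SCHLAP1 (0.11), ZNF585A, COBLL1, VWA1 and DUSP2 (0.15), and SCHLAP1, a long non-coding RNA known from PCa, had 2.77, 43.0 and 35.3 CPM.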

How the data were processed

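Polyadenylated RNA was sequenced from 9 libraries. Per the labels, the authors used cutadapt 4.1, STAR 2.7.7a and UMI-tools 1.1.2 with GRCh38, and deposited raw counts per gene and library. The 253944 values of the table equalled the forward-strand STAR counts, and 0 columns were unused. A share of 20.3% to 25.4% of reads was left out. It covers all reads that STAR did not assign to a single gene on that strand, including unmapped and multi-mapped reads. The 6 libraries of a comparison were fitted alone with edgeR 4.0.16 (R 4.3.3) as a quasi-likelihood test with TMM factors, and the SE of a log2 fold change was its size over the root of the F statistic. The batch term of the study's methods was left out because the batches are not named. Benjamini-Hochberg adjustment covered all tested genes. CPM in the text use TMM factors over 9 libraries, and lengths are those of Ensembl canonical transcripts (GENCODE). Named genes are the 10 members, fixed lists of related genes and markers, and the 5 nearest genes to VIM and OVOL2. Members and lists were chosen with earlier results of these data known.

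On simulated counts with 200 changed genes, the fit recovered 190, 197 and 199 for PC3 against DHT (12157 genes), PC3 against vehicle (12293) and DHT against vehicle (11534). Over 10015 genes, deviations of DHT and vehicle libraries with the same replicate number correlated at 0.152, 0.234 and 0.211, so these numbers were taken to pair the libraries, whereas same-numbered PC3 and LNCaP libraries correlated at -0.202 to 0.082. DHT and vehicle libraries of different number correlated at -0.269 to 0.103. For PC3 and LNCaP libraries of different number the range was -0.242 to 0.224. Values of this size thus also occurred without a shared number, and the pairing is uncertain. The SE and p-values given for DHT against vehicle come from the fit without this pairing. It enters only in the pair ratios and the replicate block. Alternatives were DESeq2 1.42.0, its size factors, a likelihood ratio test, a replicate block, no filter, all libraries in 1 fit, unstranded counts, adjusted p alone, and leaving out each library.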

Additional observations from a re-analysis of the deposited data

How the results depend on the processing

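Over the alternatives, 367 of 374 values for single genes kept their direction and their side of the threshold. ZEB1 between DHT and vehicle, not called in any fit, changed sign without DHT replicate 1 (-0.2661), and the values with single libraries left out ran from -0.2661 to 1.6259. The other 6 were the SNAI1 values between DHT and vehicle, which stayed between -0.9999 and -0.9514, just inside 2-fold. With adjusted p alone as the rule, 10530 of 12541 genes were called for PC3 against DHT and 10577 of 12686 for PC3 against vehicle. For DHT against vehicle 8763 of 11697 genes were called, and 6 of the 7 members tested. Most tested genes thus passed this rule in each comparison. Without the filter on low counts the genes called numbered 9147, 8713 and 2941. The replicate block, which pairs the DHT and vehicle libraries, gave 5756, 5495 and 1638 called genes and changed no call of a member. Leaving out single libraries gave 5717 to 5830, 5415 to 5616 and 1601 to 1686 called genes, with members called in the same numbers. Genes were kept as in the full comparison when a library was left out. Depth limited ZEB1 and ZEB2 in LNCaP cells and SNAI1 in all groups, where single reads move a value.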

Other observations

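Proteins that anchor or pair with vimentin filaments were mostly higher in PC3 cells. Of 10 such genes, 6 were tested against DHT-treated cells, of which 5 were called higher and 1 lower, and 7 against vehicle-treated cells, of which 5 were called higher and 1 lower. Of all tested genes, 24% and 22.2% were called higher in these comparisons, and 22.1% and 21% lower. NES, which encodes nestin, had 190 CPM in PC3 cells, 0.946 with DHT and 1.77 with vehicle. PLEC, the cytolinker plectin, had 1353, 166 and 134 CPM, with log2 fold changes of 3.03 (SE 0.081) and 3.36 (SE 0.088). EPPK1, epiplakin, was lower in PC3 cells at log2 fold changes of -5.77 and -5.87. Between DHT and vehicle, edgeR's quasi-likelihood test and DESeq2 called 0 of 4 tested, with 1 higher and 3 lower at an unadjusted p under 0.05.

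The corepressors that ZEB and Snail factors recruit differed by less than 2-fold between PC3 and vehicle-treated LNCaP cells. Of 9, 0 were called in PC3 cells against vehicle by edgeR's quasi-likelihood test or DESeq2, with 2 higher and 5 lower at an unadjusted p under 0.05. CTBP1, a partner of ZEB proteins, had 132 CPM in PC3 cells, 69.8 with DHT and 242 with vehicle, and was called lower with DHT than with vehicle (-1.79, SE 0.057). Among 5 antisense partner genes, ZEB2-AS1 and OVOL1-AS1 had 0 counts in every library. SNAI3-AS1 was called lower in PC3 cells than with DHT at a log2 fold change of -1.24.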
